A study of Mus musculus with 44 samples.

Results

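The 9 genes Timp1, Timp2, Timp3, Timp4, Serpine2, Serpinf1, Plat, Plau and Plaur were followed through fibroblasts sorted from mouse mammary tumors and from control mammary glands. They were chosen by symbol for their shared place in extracellular proteolysis, with earlier results of these data known. Each of the 9 had exactly 1 row among the 55486 genes of the count table. The host animals were female En1-Cre;mTmG mice, in which Cre expressed from En1, a gene switched on in part of the embryonic dermis, turns a membrane Tomato label into membrane GFP, so that green cells descend from the En1 lineage. Their mammary fat pads, which kept their own tissue, had received control mammary tissue or tissue of 1 of 2 tumor models on the FVB/n background. The labels title the control samples wildtype. The study names WapCre-negative Cdh1F/F;PtenF/F donors for control transplants into such mice, but does not say that these samples came from them. In the WB1P model (WapCre;Brca1F/F;Trp53F/F) Cre from the whey acidic protein promoter deletes Brca1 and Trp53 in mammary epithelium, and the WB1P-Myc model carries in addition the Cre-activated Myc allele Col1a1invCAG-Myc-IRES-Luc. End-stage tumors or age-matched control tissue were digested and fibroblasts were taken by FACS as cells without the epithelial markers EpCAM and CD49f, the endothelial marker CD31 and the leukocyte marker CD45. CD26, the cell surface peptidase encoded by Dpp4, and En1-lineage GFP then gave 4 sorted populations, of which En1+ and En1−/CD26− cells are called CD26− here and CD26+ and En1+/CD26+ cells are called CD26+. Fibroblasts of control tissue are called normal fibroblasts (NFs) and those of tumors cancer-associated fibroblasts (CAFs).

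There were 44 libraries from 13 mice, 3 with control transplants (mice 1 to 3), 5 with WB1P tumors (mice 4 to 8) and 5 with WB1P-Myc tumors (mice 9 to 13). Counts of libraries from the same mouse and class were added up, 2 libraries in 19 of the resulting 25 sums and 1 in the other 6. WB1P mouse 4 gave 1 En1+ library and so has no CD26+ value. Each control title carried a pair of animal numbers, so a control "mouse" may be a pool of animals, and mice 12 and 13 were labelled 8x8, a tumor size that the study counts as advanced and not as end-stage. The libraries held between 5790599 and 15240328 counts assigned to genes (median 12818093). Levels are in CPM, counts scaled to the size of the library after TMM (trimmed mean) normalisation, fold changes come from edgeR's quasi-likelihood test on the sums of all groups, adjusted p-values are Benjamini-Hochberg values over all genes tested, and a gene is called changed at an adjusted p under 0.05. In bulk RNA of a sorted population, fewer cells of a type and less RNA per cell cannot be told apart.

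Dpp4 followed the sort, with means of 527 CPM in CD26+ against 4.87 CPM in CD26− NFs, 419 against 5.04 CPM in WB1P and 409.9 against 7.78 CPM in WB1P-Myc CAFs. The 6 fibroblast markers Pdgfra, Pdgfrb, Col1a1, Col1a2, Dcn and Lum summed to between 19762 and 56468 CPM per mouse, whereas 6 epithelial markers summed to at most 168 CPM, 6 immune markers to at most 228 CPM, 6 endothelial markers to at most 78.1 CPM and 4 Schwann cell markers to at most 50.0 CPM. The 6 pericyte markers Rgs5, Notch3, Cspg4, Kcnj8, Abcc9 and Higd1b stood apart, with summed levels of 194 to 361 CPM for NFs, 1567 to 4562 CPM for WB1P and 2117 to 8149 CPM for WB1P-Myc CAFs in the CD26− class, against 146 to 389 CPM in all CD26+ sums. No marker of these lists was at 0 in every mouse of a group.

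Serine proteases and metalloproteinases meet in these genes. Plasmin, a serine protease that degrades fibrin and matrix proteins, is cut from plasminogen by tissue-type plasminogen activator (tPA, encoded by Plat) or by urokinase (uPA, encoded by Plau), and the receptor uPAR (Plaur) holds urokinase at the cell surface. Serpine2, or protease nexin-1, is a serpin that traps thrombin, urokinase, tPA and plasmin, while Serpinf1, or PEDF, has the serpin fold without inhibiting proteases and is known for its action against new blood vessels. The tissue inhibitors of metalloproteinases (TIMPs) block matrix metalloproteinases, many of which are in turn activated by plasmin. Timp1, Timp2 and Timp4 encode soluble inhibitors, TIMP2 also takes part in the activation of proMMP2 at the cell surface, and TIMP3 binds to the matrix and also inhibits several ADAM and ADAMTS proteases.

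The 250 bases before the RefSeq start of Serpine2, Timp1 and Plaur are given because these were the members called higher in CAFs. They are written 5′ to 3′ on the strand of the gene, in build GRCm38.p6, with capitals for every match, on either strand, to the GC box GGGCGG, the site of Sp-family factors, or to the AP-1 site TGANTCA. The Serpine2 stretch is chr1:79858666-79858915 on the minus strand, that of Timp1 is chrX:20869916-20870165 on the plus strand and that of Plaur is chr7:24462233-24462482 on the plus strand.
Serpine2: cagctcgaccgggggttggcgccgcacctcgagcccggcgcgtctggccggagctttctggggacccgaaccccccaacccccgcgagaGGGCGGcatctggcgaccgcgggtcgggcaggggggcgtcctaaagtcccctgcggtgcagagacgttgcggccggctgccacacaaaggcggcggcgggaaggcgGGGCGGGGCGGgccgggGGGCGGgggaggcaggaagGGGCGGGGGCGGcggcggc
Timp1: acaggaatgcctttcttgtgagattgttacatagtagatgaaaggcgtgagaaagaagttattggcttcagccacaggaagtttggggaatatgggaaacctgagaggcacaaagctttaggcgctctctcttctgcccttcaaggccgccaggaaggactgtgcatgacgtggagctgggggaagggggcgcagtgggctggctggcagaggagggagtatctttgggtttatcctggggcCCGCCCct
Plaur: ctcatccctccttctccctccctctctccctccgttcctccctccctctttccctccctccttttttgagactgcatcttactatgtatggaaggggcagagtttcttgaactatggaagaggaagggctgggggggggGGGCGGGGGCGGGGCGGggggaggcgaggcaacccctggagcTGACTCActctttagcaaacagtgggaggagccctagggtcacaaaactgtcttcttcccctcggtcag
The Serpine2 stretch held 6 GC boxes, some of them overlapping, the Plaur stretch held 3 together with 1 AP-1 site, and the Timp1 stretch held 1. Of all 32851 promoters of this length in the RefSeq table, 32.7% held a GC box, 6.75% an AP-1 site and 12.4% the TATA box TATAAA, which none of the 3 stretches held. A match of letters is a description and not a binding site. The table had entries for 7 of the 9 members, all except Plat and Plau. Timp2 and Timp3 held 1 GC box each, and Timp4 and Serpinf1 held none of the 3 motifs.

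Serpine2 (chr1:79794197-79861180, minus strand) ranged from 21.8 to 2531 CPM over the 25 sums. In CD26− NFs it was measured at 35.0, 21.8 and 24.8 CPM in mice 1, 2 and 3. In CD26− CAFs it was measured at 2218, 1801, 2417, 1840.2 and 1318 CPM in WB1P mice 4 to 8. WB1P-Myc mice 9 to 13 gave 2002, 1511, 1356, 2531 and 624 CPM in the same class. The lowest CD26− CAF value, from the 8x8 mouse 13, was thus far above the highest NF value. The highest, 2531 CPM, came from mouse 12, which was labelled 8x8 too. CD26+ NFs gave 55.0, 42.6 and 35.4 CPM. CD26+ CAFs gave 305, 302, 193 and 259.5 CPM in WB1P mice 5 to 8. In WB1P-Myc mice 9 to 13 the CD26+ levels were 337, 311, 439, 243 and 220.2 CPM. All CD26+ CAF values lay above all NF values and below all CD26− CAF values, so that the order of the groups was NF, CD26+ CAF, CD26− CAF, with the NF classes and likewise the tumor models next to each other.

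Against NFs, Serpine2 rose in CD26− CAFs by a log2 fold change of 6.14 ± 0.43 (SE) in WB1P, 70.5-fold (adjusted p = 1.93e-09, edgeR), and by 5.88 ± 0.43 in WB1P-Myc, 58.9-fold (adjusted p = 4.55e-09, edgeR). In CD26+ CAFs it rose by 2.58 ± 0.36 in WB1P, 5.97-fold (adjusted p = 3.07e-05, edgeR), and by 2.81 ± 0.36 in WB1P-Myc, 6.99-fold (adjusted p = 1.21e-05, edgeR). All 4 differences exceeded the log2 fold change of 2 that the study used as its limit. Within tumors Serpine2 was lower in CD26+ than in CD26− cells of the same mouse in 4 of 4 WB1P mice (−2.86 ± 0.32, 7.25-fold, adjusted p = 1.52e-06, edgeR) and in 5 of 5 WB1P-Myc mice (−2.37 ± 0.29, 5.17-fold, adjusted p = 3.44e-06, edgeR), again past that limit. In NFs the difference had the opposite sign, being higher in CD26+ cells in 3 of 3 mice with no overlap of the classes, and was not called (0.70 ± 0.36, adjusted p = 0.392, edgeR), although it was with limma voom and the mouse as a random effect (0.71, adjusted p = 0.044). The difference between the CD26 contrasts was itself called, at −3.56 ± 0.48 for WB1P against NF (adjusted p = 0.00037, edgeR) and −3.08 ± 0.46 for WB1P-Myc against NF (adjusted p = 0.000832, edgeR). Of all 16601 genes tested, 1.86% and 1.16% were called in these 2 tests of a difference, and of the 9 members it was Serpine2 alone in both. Between the tumor models the CD26 contrast of Serpine2 differed by 0.49 ± 0.40, which was not called (adjusted p = 1, edgeR), and none of the genes tested was called in that comparison (0%), with 549 at an unadjusted p under 0.05 and 2 called by DESeq2. The 549 are fewer than the share of 0.05 that chance alone would give.

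The pericyte markers moved with Serpine2 in CD26− CAFs against NFs and between the CD26 classes of tumors. Within the CD26− class all 6 of them were called higher in the CAFs of both tumor models than in NFs, and 4 of 6 in WB1P and 6 of 6 in WB1P-Myc were called lower in CD26+ than in CD26− CAFs. In CD26+ CAFs against CD26+ NFs, where Serpine2 also rose, 2 pericyte markers were called higher and 1 lower in WB1P, and 1 higher and 1 lower in WB1P-Myc, and the summed levels were 162 to 187 CPM in NFs, 165 to 389 CPM in WB1P and 146 to 289.9 CPM in WB1P-Myc. Between the CD26 classes of NFs, where Serpine2 was higher in CD26+ cells without being called, 0 pericyte markers were called higher and 1 lower in CD26+ cells. Their median log2 fold change there was −0.52. The part of pericytes in the levels of Serpine2 was not tested.

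**Figure D1:**
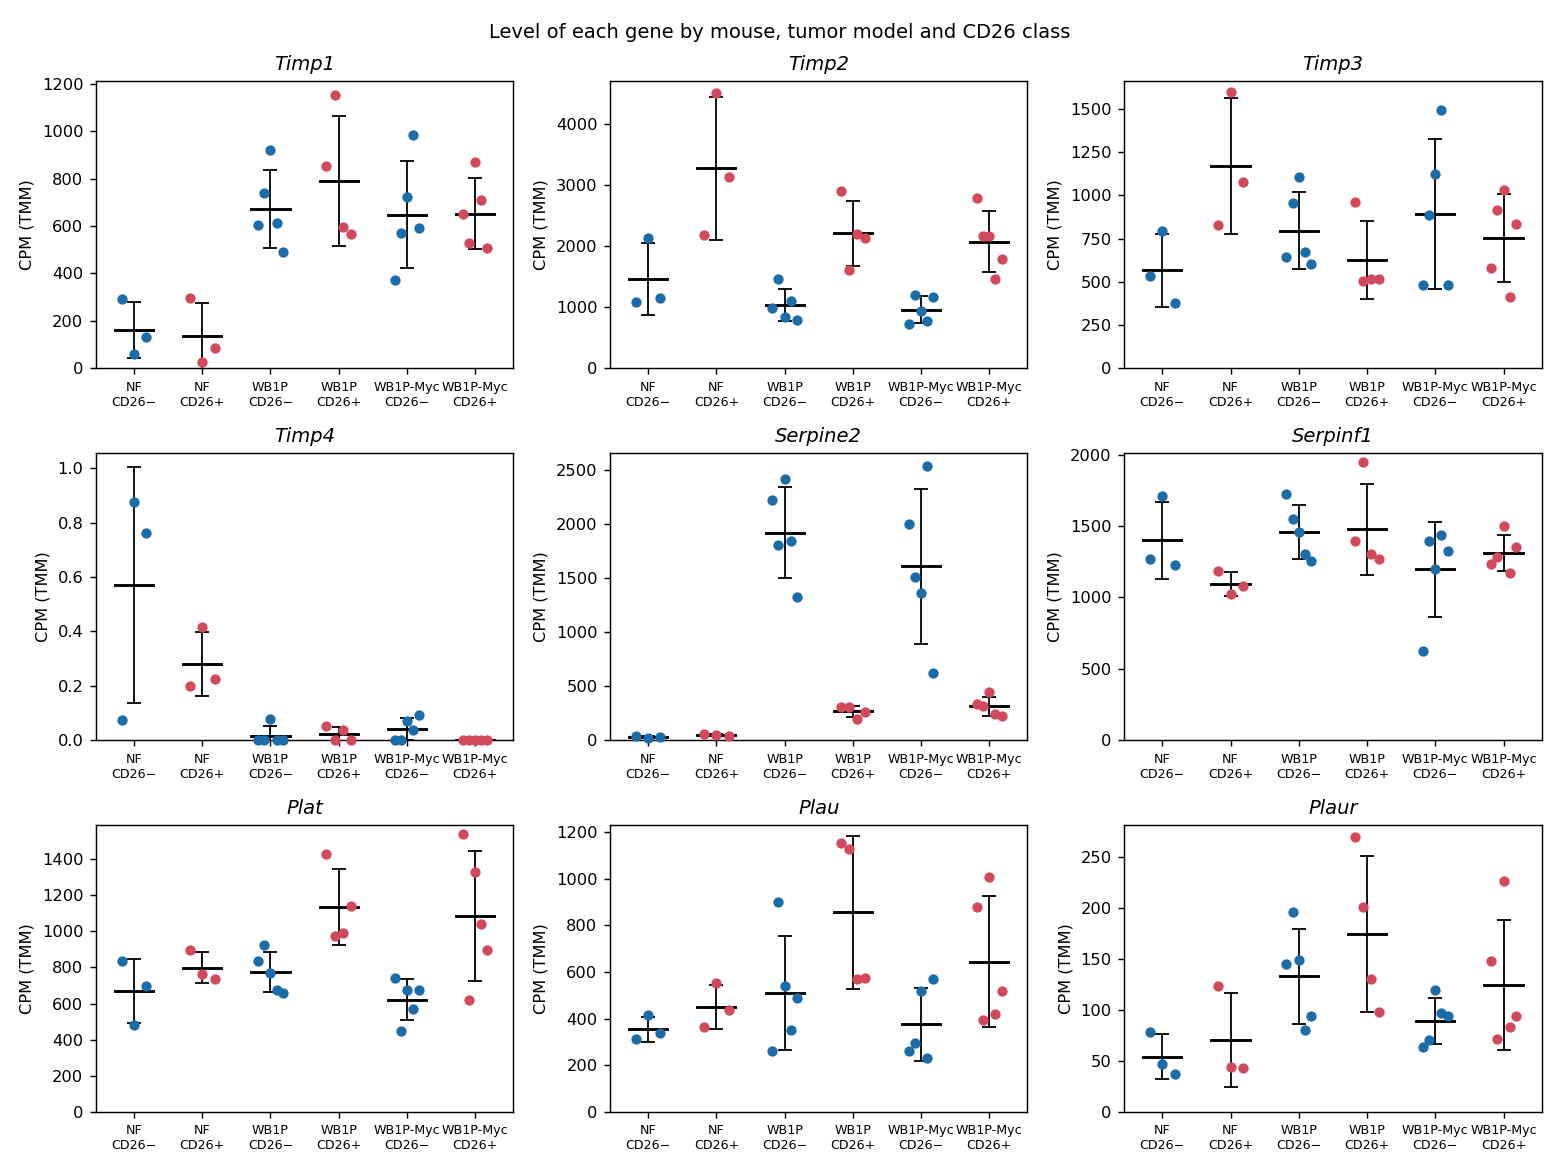
Level of the 9 genes in CPM (TMM scaling, linear axis from 0) by tumor model and CD26 class; each point is 1 mouse, blue for CD26− and red for CD26+, with the group mean as a line and ± 1 SD as a bar (n = 3, 3, 5, 4, 5 and 5 mice from left to right). Serpine2 is near the axis in NFs and lies between 624 and 2531 CPM in CD26− CAFs, Timp1 is higher in all CAF groups, and Timp2 is higher in each CD26+ group.

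Serpinf1 (chr11:75409769-75422701, minus strand), the other serpin, was abundant in all groups. Its means were 1401 ± 269.7 CPM (SD, n = 3) in CD26− and 1093 ± 81.9 CPM (n = 3) in CD26+ NFs. WB1P CAFs held 1458 ± 188 CPM (n = 5) in CD26− and 1477 ± 317 CPM (n = 4) in CD26+ cells. WB1P-Myc CAFs held 1196 ± 333 CPM (n = 5) and 1309.6 ± 125 CPM (n = 5). The lowest single value, 623 CPM, came from the CD26− cells of WB1P-Myc mouse 9 and the highest, 1947 CPM, from the CD26+ cells of WB1P mouse 6. No comparison of Serpinf1 was called. Its CD26+ levels were higher in all 4 WB1P mice (1265 to 1947 CPM) than in the 3 control mice (1020.5 to 1182 CPM), at 0.43 ± 0.22 (adjusted p = 0.133, edgeR).

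Timp1 (chrX:20870166-20874735, plus strand, within an intron of Syn1 on the opposite strand) was the TIMP that rose in tumors. Control mice 1, 2 and 3 gave 291, 61.8 and 133 CPM in CD26− cells and 296, 26.7 and 83.6 CPM in CD26+ cells. Mouse 1 was the highest of the controls in both classes. CD26− WB1P CAFs held 607, 742, 921, 612 and 489 CPM in mice 4 to 8. CD26+ WB1P CAFs held 852, 1155, 595 and 566 CPM in mice 5 to 8. The WB1P-Myc mice 9 to 13 gave 372, 569.9, 725, 983 and 590.4 CPM in CD26− cells and 650.4, 527, 873, 709 and 506 CPM in CD26+ cells. Every CAF value was above every NF value, and the CD26 classes overlapped in each model.

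The increase of Timp1 over NFs was 2.06 ± 0.55 in CD26− WB1P CAFs (4.16-fold, adjusted p = 0.00622, edgeR) and 2.55 ± 0.58 in CD26+ WB1P CAFs (5.85-fold, adjusted p = 0.00238, edgeR). In WB1P-Myc it was 2.00 ± 0.55 in CD26− CAFs (4.00-fold, adjusted p = 0.00744, edgeR) and 2.27 ± 0.56 in CD26+ CAFs (4.83-fold, adjusted p = 0.00408, edgeR). The limit of 2 used in the study was passed by all 4, for WB1P-Myc CD26− cells by a margin lost in rounding. Control mouse 1 set much of the size, since without it the 4 increases were 6.96-fold and 14.2-fold in CD26− and CD26+ WB1P CAFs and 6.68-fold and 11.8-fold in those of WB1P-Myc. Between CD26 classes of a model Timp1 was not called, with differences of −0.26 ± 0.57 in NFs, 0.23 ± 0.46 in WB1P and 0.01 ± 0.44 in WB1P-Myc.

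Timp2 (chr11:118301069-118355740, minus strand) was higher in CD26+ cells in each of the 3 models. Control mice 1 to 3 held 1085, 2137 and 1154 CPM in CD26− cells and 2174, 4510.2 and 3128 CPM in CD26+ cells. WB1P CAFs held 992, 1452, 835, 1091 and 794 CPM in CD26− cells of mice 4 to 8 and 2901, 1605, 2188 and 2137 CPM in CD26+ cells of mice 5 to 8. WB1P-Myc mice 9 to 13 held 718, 1205, 936, 768 and 1167 CPM in CD26− cells and 2779, 2168, 2165, 1453 and 1785 CPM in CD26+ cells. In every one of the 12 mice with both classes the CD26+ cells held more, and the classes did not overlap in any model. The increase in CD26+ cells was 1.17 ± 0.32 in NFs (adjusted p = 0.0395, edgeR), 1.10 ± 0.26 in WB1P (adjusted p = 0.00322, edgeR) and 1.11 ± 0.25 in WB1P-Myc (adjusted p = 0.00236, edgeR). The call in NFs was not stable, as it was lost without any of the 3 control mice, and also without WB1P mouse 6, 7 or 8 or WB1P-Myc mouse 10, 11 or 13, at adjusted p-values (edgeR) from 0.0503 to 0.359 with differences of 1.05 to 1.25. It was also lost without the low-count filter (adjusted p = 0.0622, edgeR) and in a fit of the compared groups alone (adjusted p = 0.25, edgeR). It was kept with the mouse as a replicate block and with limma voom and the mouse as a random effect. The tests of a difference between models gave −0.07 ± 0.41 for WB1P and −0.05 ± 0.40 for WB1P-Myc against NF, neither called.

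Compared with NFs, Timp2 was lower in each CAF group without being called, at −0.50 ± 0.28 (adjusted p = 0.17, edgeR) and −0.57 ± 0.29 (adjusted p = 0.138, edgeR) in CD26− and CD26+ WB1P CAFs and −0.61 ± 0.28 (adjusted p = 0.0915, edgeR) and −0.66 ± 0.28 (adjusted p = 0.0689, edgeR) in those of WB1P-Myc. The NF and CAF values overlapped in all 4 comparisons. The last of these, in CD26+ WB1P-Myc cells, was called lower with DESeq2 (adjusted p = 0.0418), without control mouse 1 (−0.88, adjusted p = 0.0316, edgeR) and without WB1P-Myc mouse 9 (−0.79, adjusted p = 0.0399, edgeR).

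**Figure D2:**
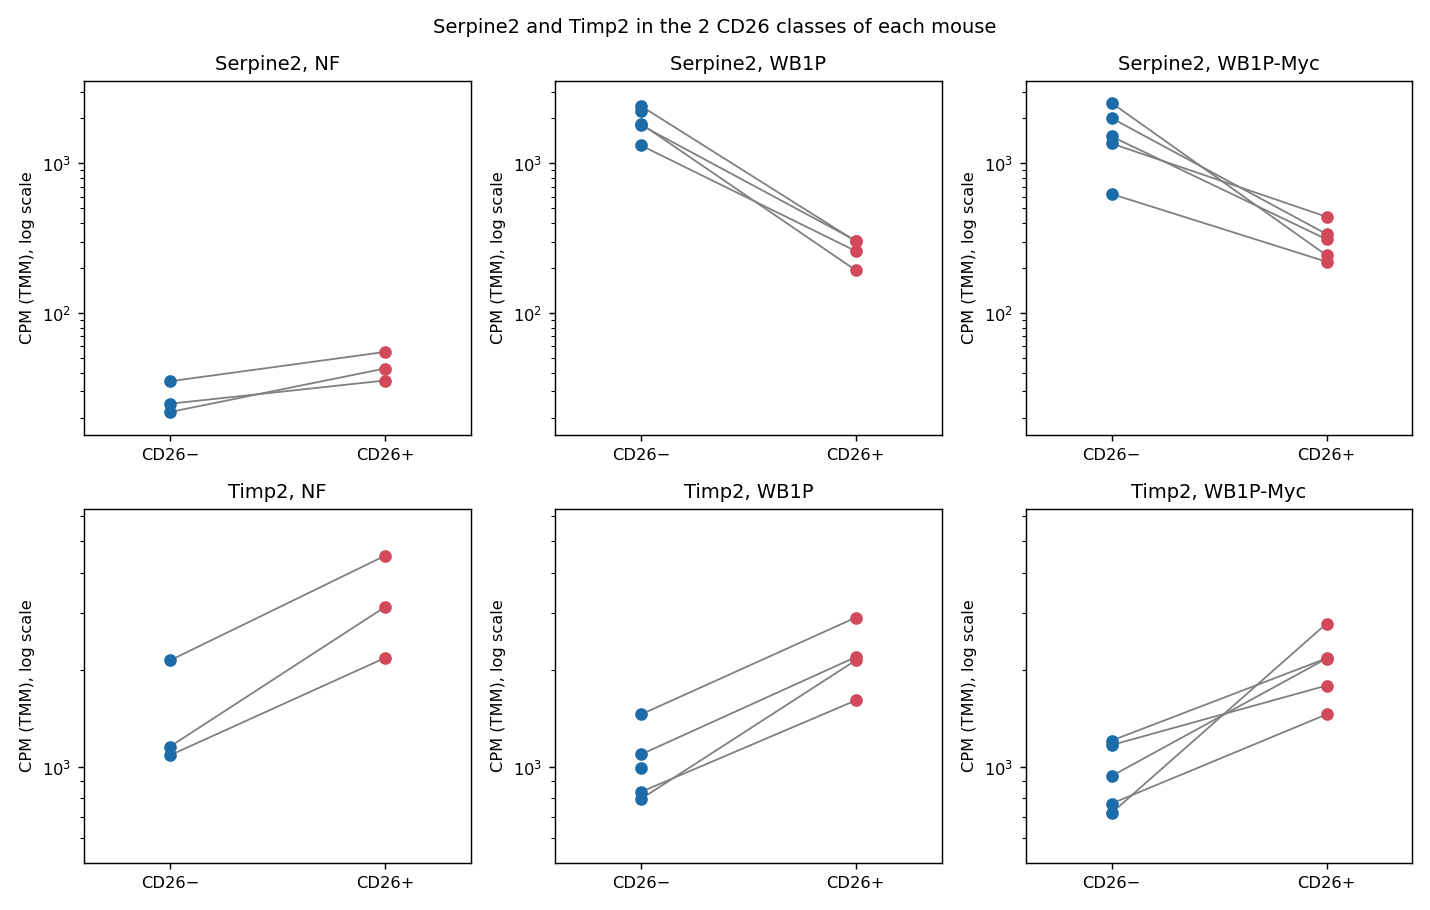
Serpine2 (top) and Timp2 (bottom) in CPM on a log axis, in CD26− and CD26+ fibroblasts; a line joins the values of 1 mouse, and WB1P mouse 4 has a CD26− point only. Serpine2 lines rise in the 3 control mice and fall in all 9 tumor-bearing mice with both classes, whereas Timp2 lines rise in all 12.

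Timp3 (chr10:86300372-86349506, plus strand) showed no difference called by edgeR over all mice. NFs held 530.4, 791 and 374 CPM in CD26− cells and 831, 1599 and 1079 CPM in CD26+ cells of mice 1 to 3. The classes of NFs did not overlap, at 1.05 ± 0.42 (adjusted p = 0.217, edgeR), and limma voom with the mouse as a random effect called the difference (1.06, adjusted p = 0.047). WB1P CAFs held 644, 957, 1104, 674 and 602 CPM in CD26− cells and 963, 503, 513 and 518 CPM in CD26+ cells, and WB1P-Myc CAFs held 478, 886, 1124, 1497 and 480.3 CPM against 577, 917, 1030.0, 411 and 835 CPM. In CAFs the classes overlapped, at −0.35 ± 0.34 in WB1P and −0.24 ± 0.32 in WB1P-Myc. The difference between the CD26 contrasts was −1.40 ± 0.54 for WB1P against NF (adjusted p = 0.228, edgeR, and 0.0486 with limma voom and the mouse as a random effect) and −1.29 ± 0.53 for WB1P-Myc against NF (adjusted p = 0.377, edgeR). In CD26+ cells Timp3 was at −0.91 ± 0.39 in WB1P against NF (adjusted p = 0.0742, edgeR), with WB1P mouse 5 overlapping the control range, and without that mouse the value was −1.22 and passed the test (adjusted p = 0.0282, edgeR), as it did without WB1P-Myc mouse 12 (−0.93, adjusted p = 0.0447, edgeR). Timp3 shares 1733 exon bases with Syn3 on the opposite strand, for which no library held more than 8 counts.

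Timp4 (chr6:115241892-115252205, minus strand) was close to the limit of detection. The CD26− sums of control mice 1 to 3 held 2, 24 and 23 counts, or 0.0725, 0.877 and 0.762 CPM. Their CD26+ sums held 5, 11 and 7 counts, or 0.198, 0.415 and 0.225 CPM. In CAFs there were 2 counts in all over the 5 CD26− WB1P sums, 2 over the 4 CD26+ WB1P sums, 4 over the 5 CD26− WB1P-Myc sums and 0 over the 5 CD26+ WB1P-Myc sums. Per count sequenced, CD26− NFs held 31.9 times as much as CD26− WB1P CAFs (95% exact interval 8.37 to 271, counting error only) and 15.3 times as much as CD26− WB1P-Myc CAFs (5.62 to 58.5). CD26+ NFs held 10.9 times as much as CD26+ WB1P CAFs (2.70 to 95.7), and in CD26+ WB1P-Myc CAFs Timp4 was at least 8.56-fold lower, taking 3 counts over the group as the floor. Timp4 was called lower in all 4 comparisons with NFs, past the limit of 2, but it had passed the filter on low counts only through NFs and so had to differ. The call in CD26+ WB1P CAFs (adjusted p = 0.026, edgeR) was lost with DESeq2 and without control mouse 3 or WB1P mouse 6, 7 or 8, and without control mouse 2 Timp4 did not pass the filter. Timp4 shares 90 exon bases with Syn2 on the opposite strand, whose mean of 7.29 CPM in CD26− and 2.84 CPM in CD26+ NFs was also above its means of 0.516 to 0.85 CPM in CAF groups, and the part of Syn2 reads in the Timp4 counts was not tested.

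Set side by side per exon length, as CPM per kilobase of exon (RPKM), the TIMP with the largest mean share of transcripts was Timp2 in NFs and Timp1 in CAFs. The same order held in each mouse except for the CD26− cells of control mouse 1, where Timp1 took 48.8% and Timp2 41.5%. With the longest transcript as the length, the CD26+ cells of WB1P-Myc mouse 9 were an exception too, with Timp2 (46.6%) above Timp1. Timp2 took, of the summed TIMP RPKM in NFs, 59.4% ± 17.6 (SD, n = 3) in CD26− and 72.6% ± 14.5 (n = 3) in CD26+ cells. Timp1 took, in CAFs, 67.4% ± 4.42 (n = 5) in CD26− and 57.2% ± 10.8 (n = 4) in CD26+ WB1P cells and 66.3% ± 5.33 (n = 5) and 54.0% ± 7.89 (n = 5) in those of WB1P-Myc. In NFs the Timp1 share was 29.7% ± 19.6 in CD26− and 14.9% ± 16.5 in CD26+ cells, and within each CD26 class no NF mouse reached the lowest CAF mouse. Control mouse 1 was again the highest, and the mean of the other 2 control mice was 20.1% in CD26− and 5.66% in CD26+ cells. Timp3 had mean shares between 4.98% and 12.4%. These shares are descriptions of the values tested above and carry no test of their own.

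**Figure D3:**
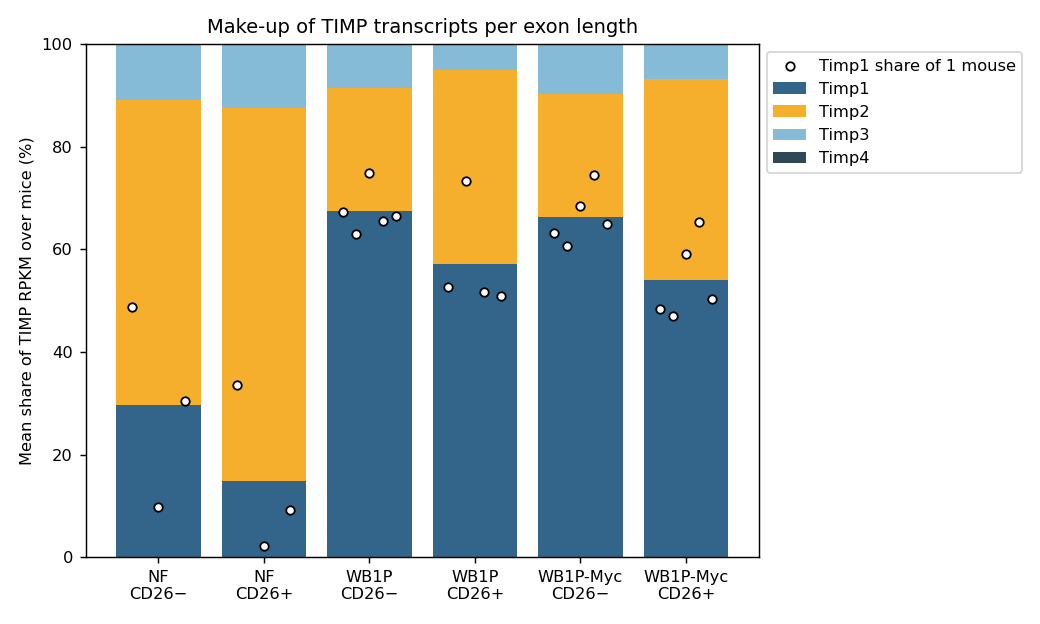
Mean share of each TIMP in the summed TIMP RPKM (%, exon union length) by tumor model and CD26 class, as stacked bars over the mice of a group; white points are the Timp1 share of single mice and Timp4 is too low to be seen. The Timp1 share lies between 9.73% and 48.8% in CD26− NFs and between 63.0% and 74.8% in CD26− WB1P CAFs.

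The plasminogen activators Plat and Plau gave 1 call in all, for Plat between the CD26 classes of WB1P-Myc. Plat (chr8:22757727-22782844, plus strand) was measured in NFs at 834, 481 and 695 CPM in CD26− and 897, 761 and 739 CPM in CD26+ cells. WB1P CAFs held 835, 925, 769.7, 677 and 657 CPM in CD26− cells and 1430.0, 975, 990.3 and 1139 CPM in CD26+ cells. WB1P-Myc CAFs held 740.2, 447, 675, 572 and 675 CPM against 1538, 618, 1328, 1042 and 895 CPM. All 12 mice with both classes held more Plat in the CD26+ cells, and the classes were apart in WB1P and overlapped in the other models. The increase was called in WB1P-Myc (0.80 ± 0.21, adjusted p = 0.00728, edgeR), was not called in WB1P (0.55 ± 0.22, adjusted p = 0.0643, edgeR) and was 0.25 ± 0.27 in NFs (adjusted p = 0.82, edgeR). With the mouse as a replicate block, which compares the classes within mice, the increase of 0.58 in WB1P passed the test (adjusted p = 0.00791, edgeR). The CD26 contrast of Plat was not called different between any pair of models. Against NFs Plat lay between −0.11 ± 0.24 and 0.50 ± 0.25 in the 4 CAF groups, none called, of which the CD26+ WB1P-Myc difference of 0.44 passed the test without mouse 10 (0.58, adjusted p = 0.0409, edgeR).

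Plau (chr14:20836660-20843385, plus strand) varied more between mice. NFs held 312, 414 and 336 CPM in CD26− and 363, 550.4 and 438 CPM in CD26+ cells. CD26− WB1P CAFs held 261, 901, 541, 351 and 489 CPM, a spread from mouse 4 to mouse 5 wider than all NFs. CD26+ WB1P CAFs held 1153, 1126, 569 and 574 CPM and were all above the NFs, at 0.93 ± 0.42 (adjusted p = 0.089, edgeR). WB1P-Myc CAFs held 259, 294, 519, 231 and 570.0 CPM in CD26− and 879, 395, 1007, 421 and 516 CPM in CD26+ cells. Plau was higher in CD26+ cells in 4 of 4 WB1P mice (0.75 ± 0.36, adjusted p = 0.127, edgeR), 4 of 5 WB1P-Myc mice (0.78 ± 0.34, adjusted p = 0.113, edgeR) and 3 of 3 control mice (0.35 ± 0.44, adjusted p = 0.874, edgeR). With the mouse as a replicate block the WB1P-Myc difference of 0.77 passed the test (adjusted p = 0.0128, edgeR), and with limma voom and the mouse as a random effect those of both WB1P (0.75, adjusted p = 0.0332) and WB1P-Myc (0.77, adjusted p = 0.0172) did.

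Plaur (chr7:24462484-24475968, plus strand), the urokinase receptor, was measured in NFs at 78.6, 46.4 and 37.0 CPM in CD26− and 124, 43.9 and 43.3 CPM in CD26+ cells. Mouse 1 was the highest control in both classes, as it was for Timp1. WB1P CAFs held 145, 196, 149, 80.0 and 94.1 CPM in CD26− cells and 269, 201, 130.4 and 97.8 CPM in CD26+ cells. WB1P-Myc CAFs held 63.7, 69.9, 119.8, 96.4 and 93.6 CPM and 148, 71.5, 226, 83.6 and 94.2 CPM. Against NFs Plaur rose in CD26− WB1P CAFs by 1.30 ± 0.44 (2.46-fold, adjusted p = 0.0245, edgeR), with no overlap, and in CD26+ WB1P CAFs by 1.31 ± 0.45 (2.48-fold, adjusted p = 0.0291, edgeR), with overlap through mouse 1 of the controls. The differences of 0.72 ± 0.43 (adjusted p = 0.192, edgeR) and 0.83 ± 0.43 (adjusted p = 0.136, edgeR) in CD26− and CD26+ WB1P-Myc CAFs were not called. Both calls rested on few mice. The CD26− call was lost without control mouse 2 (log2 fold change 1.22) or 3 (1.10). The CD26+ call was lost without control mouse 2 (1.08) or 3 (1.07), without WB1P mouse 5 (1.01) or 6 (1.23) and in a fit of the compared groups alone. Without control mouse 1 the CD26+ log2 fold changes were larger, at 1.99 in WB1P (3.97-fold) and 1.52 in WB1P-Myc (2.86-fold, then called).

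In the count of calls over all 9 members, the CD26 contrast gave 1 higher and 0 lower in NFs, where 2.67% of the 16601 genes tested were called higher and 1.49% lower. In WB1P it gave 1 higher (Timp2) and 1 lower (Serpine2) among the members, against 13% of all genes in each direction. In WB1P-Myc 2 members were higher (Timp2 and Plat) and 1 was lower (Serpine2), against 9.29% and 10.7% of all genes. For WB1P against NF, 3 members were called higher (Timp1, Serpine2 and Plaur) and 1 lower (Timp4) in each CD26 class, where all genes gave 17.6% higher and 17.8% lower in CD26− and 17.4% and 16.1% in CD26+ cells. For WB1P-Myc against NF, 2 were called higher (Timp1 and Serpine2) and 1 lower (Timp4) in each class, where all genes gave 19.1% and 17.5% in CD26− and 17.4% and 17.3% in CD26+ cells. Timp4 had passed the filter on low counts only through NFs and so had to differ. Its lower calls therefore carry no result beside the shares of all genes, and no other member was called lower in CAFs than in NFs. The median log2 fold change over the 9 members was 0.35, 0.39 and 0.13 in the CD26 contrasts of NF, WB1P and WB1P-Myc, and 0.49, 0.50, 0.08 and 0.44 for CAFs against NFs in the order above, while the median of all genes was between −0.02 and 0.02. The 4 comparisons with NFs share the control mice of each class and are given side by side, not as independent of one another.

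**Figure D4:**
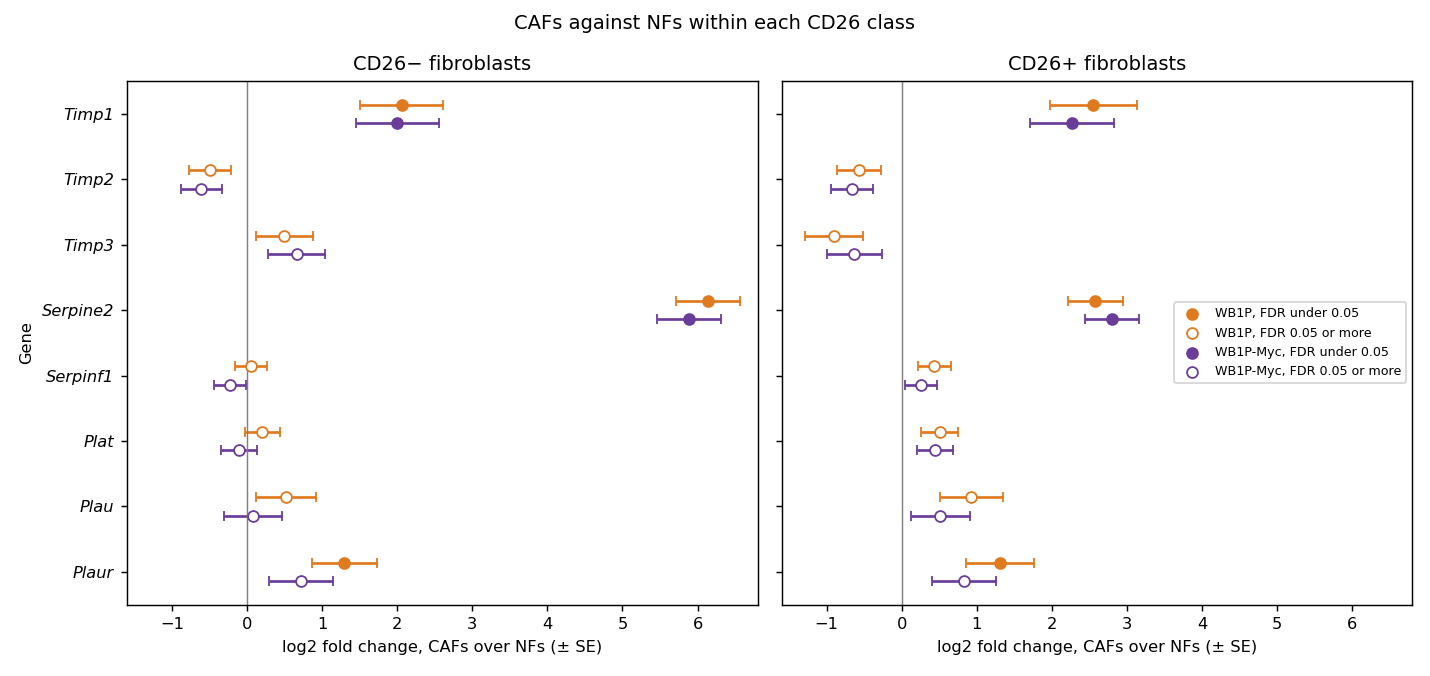
Log2 fold change ± SE of CAFs over NFs within CD26− (left) and CD26+ (right) fibroblasts for 8 genes, without Timp4; orange is WB1P, purple is WB1P-Myc, and filled points have an adjusted p under 0.05. Serpine2 is at 6.14 and 5.88 in CD26− and at 2.58 and 2.81 in CD26+ cells, Timp1 is at 2.00 to 2.55 in all 4, and Plaur is filled for WB1P only.

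No member was called between the tumor models. Of the 9 members 0 passed the test between WB1P-Myc and WB1P in either class, where 0.512% of all genes were called in CD26− and 0% in CD26+ cells. In the CD26+ comparison 646 of all genes had an unadjusted p under 0.05, fewer than the share of 0.05 that chance alone would give, and DESeq2 called 9. Without Timp4, the differences of the other 8 members lay between −0.58 (Plaur) and 0.17 (Timp3) in CD26− cells, with 95% intervals reaching from −1.29 to 0.80. In CD26+ cells they lay between −0.49 (Plaur) and 0.27 (Timp3), with intervals reaching from −1.23 to 0.95. None of these 8 had an unadjusted p under 0.05 in either class. For Serpine2 the difference was −0.26 ± 0.27 in CD26− and 0.23 ± 0.29 in CD26+ cells.

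Origin in the En1 lineage was compared within each CD26 class on single libraries, where 15584 genes and 8 of the 9 members, without Timp4, passed the filter. En1 itself was higher in the En1-lineage library in 7 of 7 CD26− and 6 of 6 CD26+ CAF mice and in 3 of 3 NF mice of each class, although it was not called. Among the members 0 were called in all 4 comparisons. The background was 0% of genes for En1+ against En1−/CD26− CAFs, 0.0193% for En1+/CD26+ against CD26+ CAFs and 0.00642% in each NF comparison. In the first of these, 641 genes had an unadjusted p under 0.05, fewer than the share of 0.05 that chance alone would give, and DESeq2 called 8. The member differences ran from −0.11 (Plau) to 0.25 (Serpinf1) in CD26− and from −0.16 (Timp2) to 0.20 (Timp1) in CD26+ CAFs, with 95% intervals reaching from −0.63 to 0.83 and from −0.60 to 0.97. In NFs they ran from −0.05 (Timp3) to 0.33 (Serpine2) and from −0.07 (Timp2) to 0.17 (Serpine2), with intervals reaching to −1.23 and 1.22. Timp2 was lower in En1+/CD26+ than in CD26+ libraries of the same mouse in 6 of 6 CAF mice and 3 of 3 NF mice. This direction was picked out among the 8 members, and the share of all genes with it was not computed. With differences of −0.16 and −0.07, Timp2 was not called in either comparison. Over all libraries of each population, with or without a partner, its means were 2032 and 2283 CPM in CAFs and 3126 and 3276 CPM in NFs. None of these intervals reached the log2 fold change of 2 used by the study.

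Compared per exon length, the order of the members in CD26− NFs was Serpinf1 (594 RPKM), Timp2 (374 RPKM), Timp1 (182 RPKM), Plau (149.7 RPKM), Plat (107 RPKM), Timp3 (69.4 RPKM), Plaur (20.6 RPKM), Serpine2 (3.29 RPKM) and Timp4 (0.0968 RPKM). In CD26− WB1P CAFs it was Timp1 (759 RPKM), Serpinf1 (618 RPKM), Timp2 (265 RPKM), Serpine2 (232 RPKM), Plau (215 RPKM), Plat (124 RPKM), Timp3 (97.8 RPKM) and Plaur (50.7 RPKM). Serpine2 thus stood next to Plau there, while in CD26+ WB1P CAFs it was at 32.0 RPKM, below Plaur at 66.7 RPKM and Plau at 361 RPKM. The place of Serpine2 depended on the length used, since its annotated exons span 8287 bases together but 3393 bases in the longest transcript, and with the latter it stood at 566 RPKM in CD26− WB1P CAFs. Other neighbours changed places as well, since with the longest transcript Serpinf1 (796 RPKM) was above Timp1 (763 RPKM) in CD26− WB1P CAFs and Plat (166 RPKM) was above Plau (151 RPKM) in CD26− NFs.

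Several known partners of these genes were also called. Of 19 other genes of the plasminogen system, 15 could be tested. Serpinb2, encoding the urokinase inhibitor PAI-2, had the largest called CD26 contrast of this list in CAFs, at 334 ± 199 CPM in CD26+ against 29.8 ± 27.1 CPM in CD26− WB1P CAFs (3.49 ± 0.86, adjusted p = 0.00452, edgeR) and 259 ± 400.3 against 18.4 ± 9.99 CPM in WB1P-Myc (3.81 ± 0.86, adjusted p = 0.00249, edgeR), the opposite direction to Serpine2. Its NF means were 1.01 CPM in CD26− and 5.38 CPM in CD26+ cells. S100a10, whose product binds plasminogen at the cell surface with annexin A2, was called higher in CD26+ CAFs of both models, at 386 against 156 CPM in WB1P and 344 against 176 CPM in WB1P-Myc. Eno1, an enolase that also serves as a plasminogen receptor, rose over NFs in all 4 CAF groups, for example from 80.2 to 412 CPM in CD26− WB1P cells (2.36 ± 0.26, adjusted p = 5.86e-07, edgeR). Vtn, encoding the matrix protein vitronectin that binds uPAR, fell in CD26− WB1P CAFs from 63.9 ± 52.6 to 18.4 ± 6.85 CPM. Over the list, 5 of 15 were called higher and 2 lower in each class of WB1P against NF, 4 higher and 3 lower in CD26− and 4 higher and 2 lower in CD26+ WB1P-Myc cells, and the medians were −0.11, 0.16, −0.27 and −0.00. The called shares, 26.7% to 33.3% of the list higher and 13.3% to 20% lower, stood beside 17.4% to 19.1% of all genes higher and 16.1% to 17.8% lower in these comparisons. In CD26+ against CD26− cells 1 was higher and 0 lower in NFs, 3 and 1 in WB1P and 4 and 2 in WB1P-Myc, with medians of 0.08, 0.41 and 0.21, where 2.67%, 13% and 9.29% of all genes were higher and 1.49%, 13% and 10.7% lower. Between tumor models 1 of the 15 was called, Itgb3, the integrin subunit of the vitronectin receptor, lower in CD26− WB1P-Myc cells (66.2 against 130.1 CPM).

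Of 22 metalloproteinases that TIMPs can bind, 21 were tested. In CD26− WB1P CAFs the collagenase gene Mmp13 rose from 0.905 ± 0.763 to 1725 ± 1349 CPM (10.89 ± 1.44, adjusted p = 6.54e-06, edgeR), the stromelysin gene Mmp10 from 0.143 to 272 CPM and the gelatinase gene Mmp9 from 0.454 to 447 CPM. In CD26− WB1P-Myc CAFs the same genes were at 396, 41.7 and 95.9 CPM and were also called. Their NF levels were close to the limit of detection, so the sizes of these changes rest on low NF counts. Whether any of them passed the low-count filter only through CAFs was not tested. The CD26 contrast of Mmp13 and Mmp10 had the direction of Serpine2, with 92.7 CPM of Mmp13 in CD26+ WB1P cells (−4.21 ± 0.91, adjusted p = 0.0016, edgeR) and 69.6 CPM in CD26+ WB1P-Myc cells (−2.51 ± 0.77, adjusted p = 0.023, edgeR). Adamts5, an aggrecanase inhibited by TIMP3, was higher in CD26+ WB1P cells at 499 against 92.1 CPM. Over the list, 5 of 21 were higher and 3 lower in CD26− and 5 higher and 1 lower in CD26+ WB1P cells, and in WB1P-Myc it was 5 and 2 in CD26− and 6 and 3 in CD26+ cells (medians 0.22, 0.26, −0.10 and 0.14). These were 23.8% to 28.6% of the list higher and 4.76% to 14.3% lower, against the same 17.4% to 19.1% and 16.1% to 17.8% of all genes, so the counts of lower calls were near or under the background. The CD26 contrast called 0 in either direction in NFs, 2 higher and 5 lower in WB1P and 4 higher and 4 lower in WB1P-Myc (medians −0.52, −0.83 and −0.21), where the share called lower in WB1P was 23.8% against 13% of all genes. None of the 21 was called between tumor models.

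All 23 genes of a list of other protease inhibitors were tested. Reck, a membrane-anchored inhibitor of metalloproteinases, fell in every CAF group, from 220.0 ± 7.64 to 49.8 ± 11.9 CPM in CD26− WB1P (−2.14 ± 0.24, adjusted p = 7.74e-07, edgeR) and to 47.8 ± 17.2 CPM in CD26− WB1P-Myc (−2.20 ± 0.24, adjusted p = 8.47e-07, edgeR), and from 222 to 92.7 and 103 CPM in CD26+ cells. Its direction was thus opposite to that of Timp1. Serpina3n, a secreted serpin of the antichymotrypsin family, rose from 180.0 ± 23.2 to 1761 ± 150.4 CPM in CD26+ WB1P (3.29 ± 0.48, adjusted p = 4.88e-05, edgeR) and to 1668 ± 447 CPM in CD26+ WB1P-Myc CAFs. Pi16, a peptidase inhibitor known as a marker of adventitial fibroblasts, was higher in CD26+ cells in all 3 models, at 1678 against 230.0 CPM in NFs, 2148 against 135 CPM in WB1P and 1879.9 against 226 CPM in WB1P-Myc. Over the list, 8 were higher and 4 lower in CD26− and 6 and 2 in CD26+ WB1P against NF, and 8 and 2 and then 6 and 2 in WB1P-Myc (medians 0.54, 0.60, 0.28 and 0.42). Of this list 26.1% to 34.8% were thus higher and 8.70% to 17.4% lower, the latter at or under the 16.1% to 17.8% of all genes. The CD26 contrast called 3 higher and 0 lower in NFs, 9 and 2 in WB1P and 4 and 2 in WB1P-Myc (medians 0.01, 0.14 and 0.09), the 9 higher in WB1P being 39.1% of the list against 13% of all genes, and none was called between tumor models. This list and those of the plasminogen system and the metalloproteinases were chosen with earlier results of these data known. Their shares beside those of all genes are therefore descriptions and no test of enrichment.

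The genes most like each member over the 6 group means were found among 9798 genes by the root mean square difference of log2 levels, each gene centred on its own mean. For Serpine2 these were Glipr1 (0.32), Piezo2 (0.37), a mechanically gated ion channel, and Podnl1 (0.42), and the Piezo2 means were 5.51 and 4.47 CPM in CD26− and CD26+ NFs, 254 and 37.6 CPM in WB1P and 191 and 32.2 CPM in WB1P-Myc. In CD26− and CD26+ NFs the means were only 0.035 and 0.011 CPM for Glipr1 and 0.26 and 0.12 CPM for Podnl1. These are below the 0.5 CPM added to every level before the log, so the likeness of these genes to Serpine2 depends on that value. Timp1 was nearest to Tm4sf1 and Gfra1 (0.14 each) and Angpt4 (0.19). Timp2 was nearest to Metrnl (0.11), Il1rl2 (0.12) and Kif2a (0.13). Timp3 was nearest to Tns1 (0.10), Pitpnm2 (0.16) and Ppp1r12b (0.18), Plat to Pxk and Nfil3 (0.07 each) and Chd3 (0.08), Plau to Rassf5 (0.10), Mapk6 and Adarb1 (0.11 each), and Plaur to Gas2l3 (0.12), Ugcg and Map2k1 (0.13 each). Serpinf1 was nearest to Gaa and Ggcx (0.04 each) and Maged1 (0.05). The likeness rests on 6 points per gene that share the same libraries.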

How the data were processed

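RNA of the sorted fibroblasts was sequenced as TruSeq stranded mRNA libraries on HiSeq and NovaSeq machines. The labels do not tell which library ran on which, so no batch could be tested. The authors deposited 1 table of raw counts per gene. The submitters' processing notes name HISAT2 2.2.1 and GRCm38, and the strand setting of the counting is not given in the sources used here. Gene coordinates in GRCm38 were taken from the reference annotation, and promoter sequences are RefSeq's (GRCm38.p6).

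Counts were summed per mouse and CD26 class, filtered with filterByExpr, scaled by TMM and tested with edgeR 4.0.16 (glmQLFit, R 4.3.3) on 6 groups in 1 fit. Populations within a class were tested on single libraries in 12 groups. Adjusted p-values are Benjamini-Hochberg values over all genes, called under 0.05. All 9 members were reported in every comparison, and of the other lists at most the 4 called genes with the largest fold change and at least 10 CPM in the higher group. The values of 1 listed gene are not reported here. The members and lists were chosen with earlier results of these data known. The scripts were tested on simulated data. RPKM used the union of annotated exons.

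Each column of the table names a mouse and a population, and populations of 1 mouse come from 1 animal or pool, so mice pair the classes. The deviations from the group mean of the CD26− and CD26+ sums correlated within mice at 0.237 to 0.668 (median 0.444) in the 12 mice. The alternatives tried were DESeq2 1.42.0, its size factors in edgeR, no filter beyond 1 count, the mouse as replicate block, limma 3.58.1 voom with the mouse as random effect, fits of the compared groups alone, levels averaged over single libraries, the longest transcript as length, leaving out the 2 mice labelled 8x8, and leaving out each mouse. The lowest chi-square per degree of freedom among 63 pairs of libraries of 1 group was 13.6, so none was counted as a copy. The exact intervals and the floor given for the Timp4 ratios cover counting error only. The intervals given for log2 fold changes, like the p-values, measure the spread between these mice.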

Additional observations from a re-analysis of the deposited data

Results flagged for a closer look

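The CD26 contrast of Serpine2 differed between tumors and controls by the test of the difference itself. It was −3.56 on the log2 scale for WB1P against NF and −3.08 for WB1P-Myc against NF, since CD26+ cells held less Serpine2 than CD26− cells in all 9 tumor-bearing mice with both classes and more in all 3 control mice. The pericyte markers were 1567 to 8149 CPM in sum in CD26− CAFs and at most 389 CPM in CD26+ cells, the same direction as Serpine2 in tumors. In NFs, where Serpine2 was higher in CD26+ cells, 0 of these 6 markers were called higher and 1 lower in CD26+ cells. The part of pericytes was not tested.

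For Timp3, 1 mouse lay far from the others of its group. WB1P mouse 5 held 963 CPM in CD26+ cells, while the other 3 mice of the group held 503 to 518 CPM, a gap to the nearest mouse that took 0.968 of the whole range. This was 1 of 32 groups examined, and chance alone flags about 1 in 20 such groups.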

How the results depend on the processing

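Of 1118 alternative values for the 58 fold changes printed for members, 1076 kept their direction and their side of the threshold, 23 lost the call, 17 gained one and 2 changed sign. Both sign changes were Timp3 in the CD26 contrast of WB1P-Myc, which was never called, at 0.020 without the 2 mice labelled 8x8 and from −0.44 to 0.17 over the mice left out. The numbers of members called moved as follows. In NFs CD26 calls went from 1 to 0 without the low-count filter and in a fit of the compared groups alone, to 3 with voom (Timp3 and Serpine2 added) and to 0 to 1 with mice left out. In WB1P they went from 2 to 4 with voom (Plat and Plau added) and to 3 with the replicate block (Plat added). Plat was also added there in a fit of the compared groups alone and without WB1P-Myc mouse 10. In WB1P-Myc they went from 3 to 4 with the replicate block (Plau added), and Plau was added with voom as well. The replicate block changed no other call of a member. WB1P against NF in CD26− cells kept 2 to 4 of 4 calls with mice left out, the lowest without control mouse 2. In CD26+ cells it went from 4 to 2 in a fit of the compared groups alone and to 2 to 5 with mice left out, 2 without control mouse 2 or 3 or WB1P mouse 6. WB1P-Myc against NF in CD26+ cells ran from 2 to 5 of 3 main calls, the highest without control mouse 1. The counts against NFs include Timp4 wherever it passed the filter, although it then had to differ. The difference of the CD26 contrast between WB1P and NF called 2 members with voom (Timp3 added) in place of 1. The causes were not tested. Timp1 and Serpine2 stayed called against NFs, and Serpine2 within tumors, in every setting run.

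Over all genes, CD26 calls in NFs were 692, against 1916 with the replicate block, 2166 with voom, 202 in a fit of the compared groups alone, 230 without control mouse 2 and 175 without control mouse 3. In WB1P-Myc they were 3326, against 5346, 5411 and, without the 8x8 mice, 2016 or, without mouse 9, 2065. WB1P against NF in CD26+ cells fell from 5566 to 2834 calls with the compared groups alone and to 3458 without control mouse 3, and WB1P-Myc against NF in CD26+ cells from 5753 to 3740 without that mouse. WB1P-Myc against WB1P in CD26− cells gave 85 calls, against 402 with DESeq2, 54 without the filter, 6 with the compared groups alone, 50 without the 8x8 mice and 9 to 243 with single mice left out, the lowest without WB1P-Myc mouse 9 or 13 and the highest without mouse 12. The tests of a difference of CD26 contrasts gave 309 and 193 calls for WB1P and WB1P-Myc against NF, against 651 and 414 with DESeq2, 851 and 523 with the replicate block and 1159 and 670 with voom, and for WB1P-Myc 107 with the compared groups alone and 125 without the 8x8 mice. Without 1 control mouse they fell to 80 to 118 and to 40 to 89, and without WB1P mouse 6, 7 or 8 to 150 to 183 and WB1P-Myc mouse 9, 11 or 12 to 98 to 128. En1+ against En1−/CD26− cells gave 0 calls in CAFs, against 11 with the replicate block and 8 with DESeq2, and 1 in NFs, against 25, 6 and, with voom, 15, while the CD26+ comparisons of En1 origin gave 0 to 3 in these settings. None of the 54 CPM levels, but 25 RPKM levels, moved by over 1 SD with another scale or the longest transcript. The depth limits Timp4, whose counts per CAF sum were at most 2.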
